A study of Homo sapiens with 6 samples.

Results

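The hypoxia response genes described here were 10 genes chosen by symbol, of the 29185 genes in the deposited expression table. They were HIF1A and EPAS1, which encode the oxygen-regulated subunits of the hypoxia-inducible factors, and 8 genes known as targets of these factors (VEGFA, ADM, ANGPTL4, CA9, EGLN3, BNIP3, NDRG1 and ANKRD37). Each was followed in SKOV3 cells, an established human ovarian cancer cell line, after silencing of the zinc-finger transcription factor KLF5. The sh-NC group (3 libraries) was labelled wild type and the sh-KLF5 group (3 libraries) carried the KLF5 knockdown. Stable knockdown cells were made with a lentiviral pLKO.1 vector that carries EGFP and puromycin resistance, and whether the lines are clones or pools is not given in the sources used here. Polyadenylated RNA was sequenced. The labels give no oxygen treatment for either group, and they do not say that the replicates came from separate cultures, so that the p-values measure only the spread between these libraries. In bulk RNA, fewer cells of a type and less RNA per cell cannot be told apart.

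In oxygenated cells, prolyl hydroxylases of the EGLN family modify the alpha subunits HIF1A and EPAS1, and the VHL ubiquitin ligase then marks them for degradation. At low oxygen the subunits escape this, pair with ARNT and bind a short DNA core in the regulatory regions of their targets. The targets serve blood vessel growth, acid balance, glucose use and the turnover of mitochondria, and carcinoma cells often express some of them in culture. Because the alpha subunits are controlled largely at the protein level, their mRNA is not a measure of pathway activity.

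The DNA core bound by hypoxia-inducible factors reads ACGTG or GCGTG, and the promoter stretches below show where these letters stand near the starts of members that the comparison covers. The sequences are from RefSeq on GRCh38.p14, in windows from 250 bases before to 50 bases after each listed transcription start, and 8 of the 10 members had a window (VEGFA and NDRG1 had none). Letters were searched on both strands, so that the core can appear as CACGT or CACGC, and CACGTG counts on either strand. Capitals mark the core, and each sequence is written 5′ to 3′ on the strand of its gene. The ADM site was at chr11:10304962-10304986, the CA9 site at chr9:35673900-35673924 and the ANGPTL4 site at chr19:8363911-8363935, all on the + strand. The ANKRD37 sites were at chr4:185396669-185396693 and chr4:185396688-185396712 on the + strand. By the gene coordinates given below, the ADM, CA9, ANGPTL4 and ANKRD37 sites lay inside the annotated gene, downstream of its outermost start. The BNIP3 stretch, shown at length because it holds the most core matches, was chr10:131982014-131982173 on the - strand, upstream of the first annotated exon.
ADM: gcaggagcgcGCGTGgctgaggaaa
CA9: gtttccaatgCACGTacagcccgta
ANGPTL4: aaagaagagtCACGTctcccacggt
ANKRD37 first site: cgccgggctcCACGTGccagtgttt
ANKRD37 second site: gtgtttgtgtACGTGcggccgtggc
BNIP3: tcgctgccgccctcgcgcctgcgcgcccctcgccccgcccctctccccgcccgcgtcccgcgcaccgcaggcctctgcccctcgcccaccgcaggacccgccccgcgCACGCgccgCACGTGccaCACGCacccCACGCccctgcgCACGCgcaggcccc
A core was present in 7 of the 8 members with a window, all but EGLN3, and in 48.4% of all 35116 RefSeq windows. The form ACGTG stood in 4 members (21.4% of all windows) and the form GCGTG in 4 members (36.5% of all windows). In BNIP3, the core matches started between 143 and 104 bases before the transcription start (positions -143 to -104), whereas the single CA9 match began at position -18 and the ADM match at position -101. The boxes that Krüppel-like factors can bind were searched the same way. GGGCGG, the GC box, was present in 7 members (45.0% of all windows) and CACCC, a C-rich box, in 8 members (59.9% of all windows). A match is a run of letters and not a measured binding site.

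**Figure D1:**
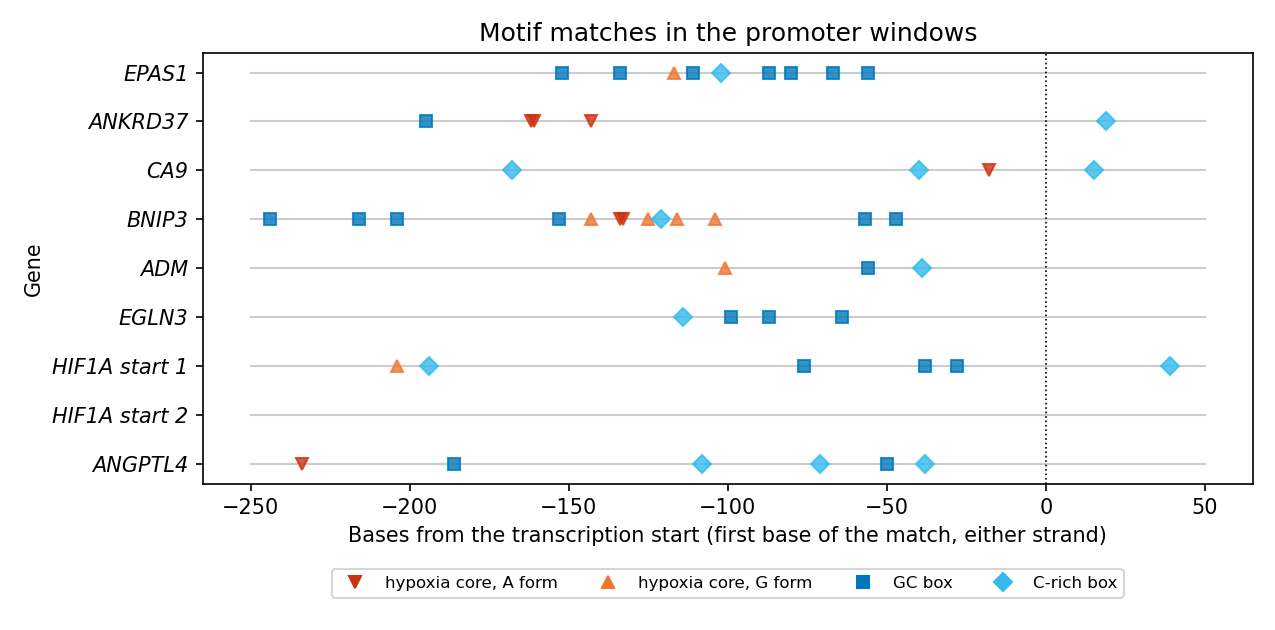
Positions of motif matches in the promoter windows of 8 members, in bases from the transcription start (x axis), with 1 line per window and 2 windows for HIF1A; symbols stand for the A and G forms of the hypoxia core, the GC box and the C-rich box. BNIP3 holds a run of core matches between -143 and -104, and EGLN3 holds GC boxes and a C-rich box but no core.

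Depth was nearly equal between the groups, with 15852319 to 17543896 recovered reads per library in sh-NC and 16009859 to 16871350 in sh-KLF5. In these libraries 3 reads, which a count of 0 still allows, equalled 0.171 to 0.189 CPM. KLF5 itself averaged 4430.1 ± 61.3 normalized counts in sh-NC against 1540.2 ± 177 in sh-KLF5 (SD, n = 3 each), which is 34.8% of the control level. The keratins KRT7, KRT8 and KRT18 were at 475, 192 and 69.6 FPKM in sh-NC, and 7 of the 8 epithelial markers listed for an ovarian carcinoma were in the table. Of 7 listed markers of blood, endothelial and stromal cells in the table, PTPRC, CD68, CDH5 and VWF had at most 10 reads in any library. PECAM1 had 31 to 75 reads, LUM 143 to 469 reads and DCN 58 to 427 reads. The summed normalized count of the other-cell markers was 599.5 to 902 in sh-NC and 237 to 528 in sh-KLF5, and that of the epithelial markers 53719 to 65753 in sh-NC and 28374 to 38808 in sh-KLF5. KRT8 (log2 fold change -1.17) and DCN (-1.82) were called lower, and KRT7 (-0.78) and KRT18 (-0.64) passed the adjusted p threshold of limma. Of the 7 epithelial markers in the table, 3 passed downward and 4 did not pass. Among those 4, 1 was higher in sh-KLF5, with a log2 difference of 1.14. The part of these shifts in the results for the hypoxia genes was not tested. Deviations of each library from the mean of its own group also followed transcript GC content to different degrees. Over 10658 genes with a mean normalized count of at least 100, the rank correlation was -0.64 in sh-KLF5 library 1 and 0.65 in sh-KLF5 library 2. It was between -0.39 and 0.51 in the other 4 libraries. As the deviations within a group cancel for each gene, these correlations do not compare the groups.

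Most hypoxia response genes did not pass the test after silencing of KLF5, and the differences that passed ran in opposite directions. ADM, which encodes the vasoactive peptide adrenomedullin, was 1.81-fold higher in sh-KLF5. NDRG1, a stress-induced gene linked to differentiation and metastasis suppression, was 1.87-fold lower. No member was called, a call being a Benjamini-Hochberg adjusted p under 0.05 from limma together with a log2 fold change above 1 or below -1 on the log2(normalized count + 1) scale. Of the 9 members with enough reads to be tested, 0 were called up and 0 down, where 5.28% of the 15803 tested genes were called (1.9% up and 3.37% down). The quasi-likelihood test of edgeR and DESeq2, both run on the recovered reads, also called 0 members. Without the fold threshold, 1 member passed upward and 1 downward (limma, Benjamini-Hochberg), where 6.04% of all tested genes passed upward and 6.85% downward (12.9% in all). An unadjusted p under 0.05 was reached by 3 members (HIF1A, ADM and NDRG1), beside 26.2% of all tested genes. The 3 libraries of one group did not overlap those of the other in 4 of 9 members, with HIF1A and ADM higher (15.4% of all tested genes) and NDRG1 and BNIP3 lower (15.9%), so 31.3% of all genes in either direction. The members' counts are small and were not tested against these shares. The median log2 difference of the members was 0.11, with 6 of 9 above 0 and a range from -0.90 to 0.85, and the median of all tested genes was -0.0023. Without sh-KLF5 library 3 the median of the members was 0.019.

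**Figure D2:**
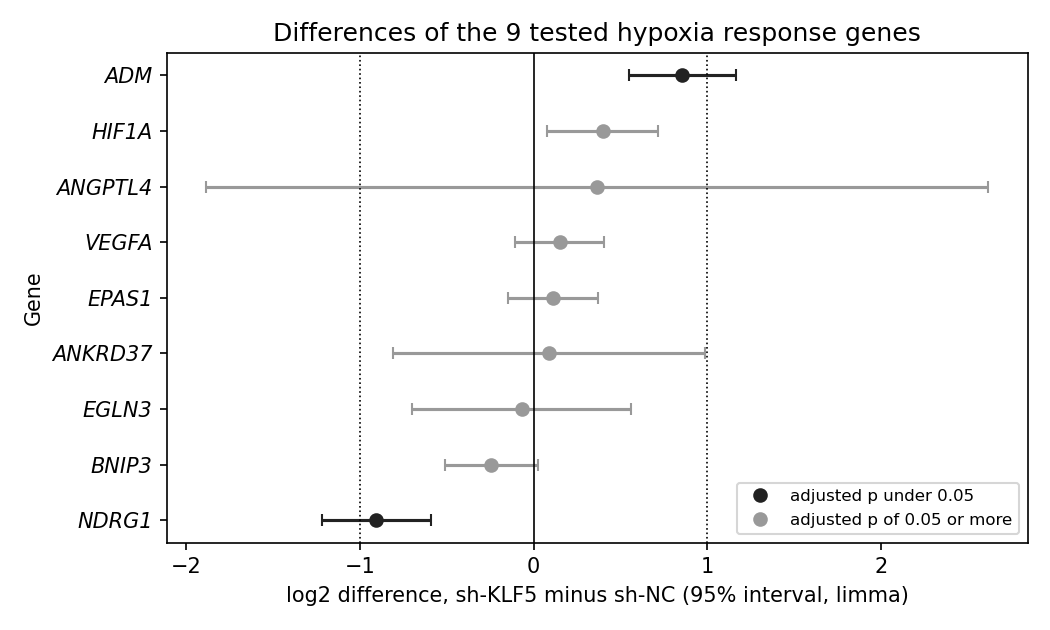
Log2 difference between sh-KLF5 and sh-NC (x axis) for the 9 tested members (y axis), with points for the limma estimate and bars for its 95% interval; dotted lines mark 1 and -1. ADM at 0.85 and NDRG1 at -0.90 are the black points with an adjusted p under 0.05, and ANGPTL4 has the widest interval, from -1.88 to 2.62.

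Per length, the members spanned a wide range of expression. FPKM was calculated here from the recovered reads, the library total and the exonic length of all transcripts of a gene. In sh-NC, HIF1A mRNA stood at 152 ± 10.5 FPKM (SD, n = 3), followed by EPAS1 at 48.7 ± 1.70 FPKM (SD, n = 3) and VEGFA at 20.1 ± 0.915 FPKM (SD, n = 3). ADM, BNIP3, NDRG1 and ANGPTL4 followed in sh-NC with mean levels of 13.3, 7.04, 4.76 and 2.39 FPKM. ANKRD37 and EGLN3 were the next in sh-NC, with mean levels of 0.457 and 0.301 FPKM and overlapping library values. CA9 was the lowest in sh-NC with a mean level of 0.0703 FPKM. Every other pair of neighbours in the sh-NC order had library values that did not overlap. The order also rests on the exonic lengths over all transcripts, such as 14431 bases for VEGFA and 7302 for EPAS1. Which transcripts the cells used was not measured. In sh-KLF5, the mean level of ADM (24.2 FPKM) overlapped that of VEGFA (22.6 FPKM) in its library values. BNIP3 (5.97 FPKM) and ANGPTL4 (4.03 FPKM) overlapped there too, as did ANGPTL4 and NDRG1 (2.59 FPKM).

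**Figure D3:**
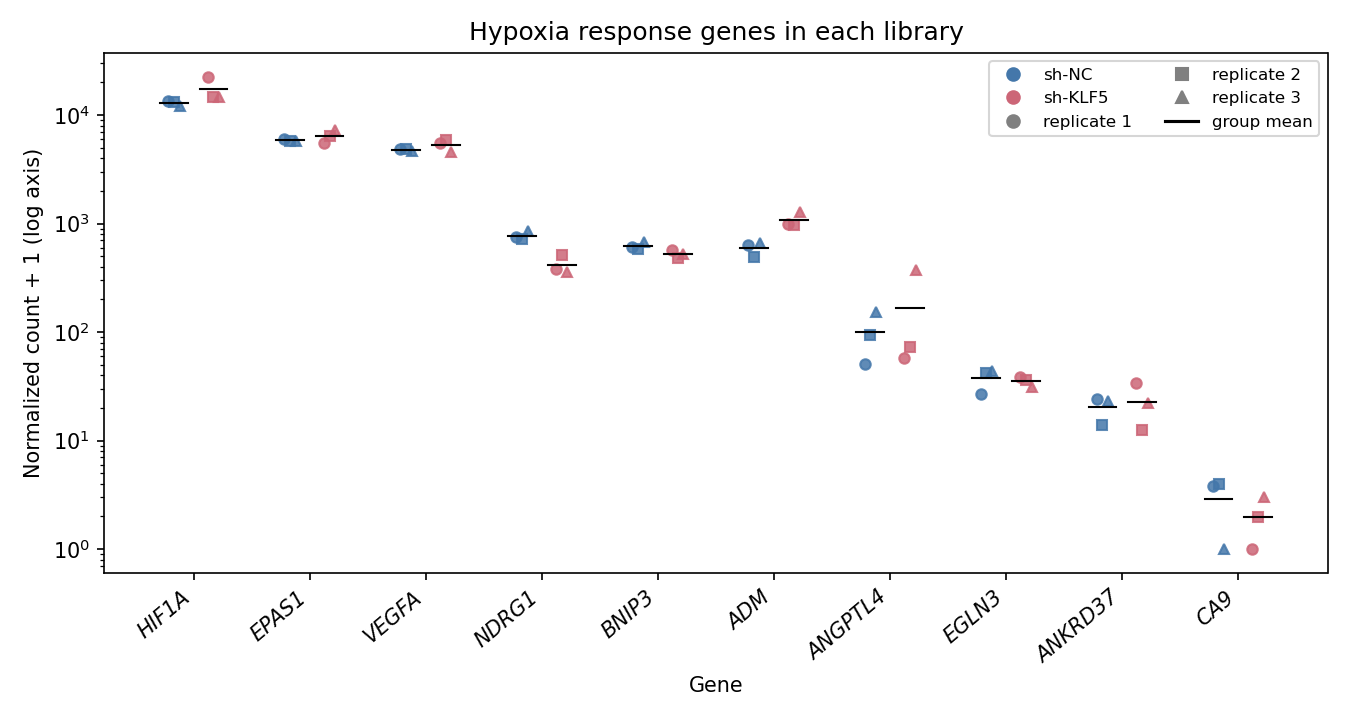
Normalized count plus 1 on a log axis (y) for each member (x) in every library, with sh-NC in blue, sh-KLF5 in red, symbols for the replicate and black lines for group means. The sh-KLF5 points of ADM lie above and those of NDRG1 below all sh-NC points, while 1 sh-KLF5 library of ANGPTL4 stands at 372 against 57.1 and 71.8 in the others.

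HIF1A (ENSG00000100644, chr14:61695513-61748259, + strand), the alpha subunit that responds in nearly all cell types, had normalized counts of 13453, 13110.2 and 12130.1 in sh-NC libraries 1, 2 and 3. HIF1A values of 22600.4, 14683 and 14708 were found in sh-KLF5 libraries 1, 2 and 3. All sh-KLF5 libraries were above all sh-NC libraries, and library 1 stood far above the other sh-KLF5 libraries, which were close to the controls. Control libraries averaged 12898 ± 687 and knockdown libraries 17330.3 ± 4564 (SD, n = 3 each), or 134% of control. The log2 difference of HIF1A was 0.40 (standard error 0.15, 95% interval 0.08 to 0.72) and did not pass (limma, Benjamini-Hochberg adjusted p = 0.102). The exact permutation test gave a two-sided p = 0.1, the smallest that 3 libraries against 3 allow. Without sh-KLF5 library 1 the log2 difference of HIF1A fell to 0.19 (limma adjusted p = 0.206). HIF1A has a low transcript GC content of 36.4%, at percentile 4.10 of the tested genes. Measured from the mean of its own group, sh-KLF5 library 1 leaned most toward GC-poor genes (rank correlation -0.64). The values were -0.39 in sh-NC library 1 and -0.27 in sh-NC library 2. These correlations lie within groups and do not compare sh-KLF5 with sh-NC. The part of GC content in the HIF1A difference was not tested beyond the next value. With the GC trend of each library removed, its log2 difference was 0.29 (limma adjusted p = 0.044). The antisense gene HIF1A-AS1 shares 2.27% of its exonic bases and had at most 29 reads, and AL137129.1 overlaps 2.87% on the same strand.

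EPAS1 (ENSG00000116016, chr2:46293667-46386703, + strand) encodes HIF-2alpha, the second alpha subunit. It had 6013, 5818 and 5775 normalized counts in the controls and 5479, 6355 and 7303 after silencing (libraries 1, 2 and 3). The groups overlapped, with sh-KLF5 library 1 below every control and library 3 above. Controls averaged 5869 ± 127 and knockdown libraries 6379 ± 912 (SD, n = 3 each), and the log2 difference was 0.11 (95% interval -0.15 to 0.37, limma adjusted p = 0.614). It was 0.0082 without sh-KLF5 library 3 and 0.22 without sh-KLF5 library 1. HIF1A and EPAS1 thus took opposite positions in sh-KLF5 library 1, where HIF1A was highest and EPAS1 lowest of all 6 libraries. Transcript GC content was 36.4% for HIF1A and 52.6% for EPAS1, and that library leaned toward GC-poor genes (rank correlation -0.64). The part of GC content in this contrast was not tested.

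EGLN3 (ENSG00000129521, chr14:33924231-34462774, - strand), an oxygen-sensing prolyl hydroxylase and itself a HIF target, was sparse, with 28, 42 and 40 reads in sh-NC and 37, 36 and 30 reads in sh-KLF5. The groups overlapped, since both the lowest and the highest value of the 6 libraries belonged to sh-NC. Normalized counts of EGLN3 averaged 36.6 ± 9.16 in controls and 34.2 ± 3.86 after silencing (SD, n = 3 each). The log2 difference of EGLN3 was -0.07 (95% interval -0.70 to 0.56, limma adjusted p = 0.919), and the values are compatible with any difference within this interval.

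Among the secreted factors, VEGFA (ENSG00000112715, chr6:43770184-43786487, + strand), the main growth factor for blood vessels, had normalized counts of 4883, 4845 and 4626 in sh-NC. In sh-KLF5 the VEGFA values were 5520.15, 5918 and 4573. Libraries 1 and 2 of sh-KLF5 exceeded all controls and library 3 lay below them, so the groups overlapped. Controls averaged 4785 ± 138 and knockdown libraries 5337 ± 691 (SD, n = 3 each), and the log2 difference of VEGFA was 0.15 (95% interval -0.10 to 0.40, limma adjusted p = 0.469). Without sh-KLF5 library 2 it was 0.071, and without sh-KLF5 library 3 it was 0.26. The opposite-strand gene AL136131.3 overlaps 1.30% of its exonic bases.

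ADM (ENSG00000148926, chr11:10304680-10307397, + strand) shares no exonic base with another gene and was the member with the clearest rise. Controls 1, 2 and 3 had 638, 495 and 664 normalized counts of ADM, and the knockdown libraries 999.9, 968 and 1283. Every sh-KLF5 library was well above every control, with library 3 the highest. The averages were 599 ± 91.2 and 1084 ± 174 (SD, n = 3 each), or 181% of control, with a log2 difference of 0.85 (standard error 0.15, 95% interval 0.55 to 1.16, limma Benjamini-Hochberg adjusted p = 0.000699). The exact permutation test of ADM gave its smallest possible p, 0.1. Leaving out 1 library at a time, the log2 difference stayed between 0.72 and 0.94 and the adjusted p of limma between 0.000151 and 0.0092. Removing the GC trend left 0.88.

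ANGPTL4 (ENSG00000167772, chr19:8363289-8374373, + strand), an inhibitor of lipoprotein lipase that is also released under low oxygen, varied more between replicates than any other member. Its reads were 54, 95 and 142 in sh-NC and 56, 74 and 371 in sh-KLF5. The highest value belonged to sh-KLF5 library 3, while the other sh-KLF5 libraries were within the control range. Normalized counts of ANGPTL4 averaged 98.2 ± 50.4 in controls and 167 ± 178 after silencing (SD, n = 3 each). The within-group SD of its log2 values was 1.17, at percentile 99.5 of all tested genes. The log2 difference of ANGPTL4 was 0.37 (95% interval -1.88 to 2.62, limma adjusted p = 0.843), and without sh-KLF5 library 3 it was -0.47 (limma adjusted p = 0.413).

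CA9 (ENSG00000107159, chr9:35673856-35681159, + strand), a membrane carbonic anhydrase widely used as a hypoxia marker, was almost unread. It had 3, 3 and 0 reads in sh-NC and 0, 1 and 2 reads in sh-KLF5, so no library exceeded the limit that a count of 0 allows. CA9 was therefore not tested, and a difference was not detectable at this depth. Its exons overlap the opposite-strand gene ARHGEF39 over 38.5% of their bases, which had up to 282 reads.

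BNIP3 (ENSG00000176171, chr10:131966455-131982013, - strand), a mitochondrial protein that promotes mitophagy, had normalized counts of 605, 577 and 674 in sh-NC and 565, 480.3 and 521 in sh-KLF5. All sh-KLF5 libraries were below all controls, although library 1 nearly reached the lowest control. The averages were 619 ± 49.6 and 522 ± 42.2 (SD, n = 3 each), or 84.4% of control. The log2 difference of BNIP3 was -0.24 (95% interval -0.51 to 0.02, limma adjusted p = 0.238), and the exact permutation test gave its smallest possible two-sided p = 0.1.

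NDRG1 (ENSG00000104419, chr8:133237171-133302022, - strand) had normalized counts of 749.5, 714 and 849.9 in sh-NC. Knockdown libraries 1, 2 and 3 had NDRG1 values of 382, 510.4 and 355. Every sh-KLF5 library was below every control, with library 2 nearest to them. The averages were 771 ± 70.3 and 416 ± 83.0 (SD, n = 3 each), or 53.9% of control, with a log2 difference of -0.90 (standard error 0.15, 95% interval -1.22 to -0.59, limma Benjamini-Hochberg adjusted p = 0.000481). The exact permutation test of NDRG1 gave a two-sided p = 0.1, the smallest possible. Left out in turn, the libraries moved the log2 difference between -1.06 and -0.80, and without sh-KLF5 library 2 NDRG1 passed the fold threshold and was called. No other gene shares its exonic bases.

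ANKRD37 (ENSG00000186352, chr4:185396021-185400628, + strand), an ankyrin repeat protein, had 25, 13 and 21 reads in sh-NC and 32, 12 and 21 reads in sh-KLF5. The groups overlapped over almost their whole range. The log2 difference of ANKRD37 was 0.09 (95% interval -0.81 to 0.98, limma adjusted p = 0.928). UFSP2 on the opposite strand overlaps 35.2% of its exonic bases and had up to 292 reads, and as the counting strand is not given, reads of the overlap cannot be assigned to either gene.

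The members did not move together within libraries. Measured from the mean of their own group, 4 to 6 of the 9 tested members were above it in each library, and the median deviation per library lay between -0.12 and 0.14 (log2). No library therefore carried a shift shared by all members. The within-group SD of the log2 values was lowest for BNIP3 (0.12) and VEGFA (0.14), and above 0.5 for ANKRD37 (0.59) and ANGPTL4 (1.17). As no member was called, the pattern of VEGFA over the 6 libraries was set beside the 10659 genes with a mean normalized count of at least 100. CYP2U1, ICAM5 and FASN were the most alike, each with a Pearson r of 0.98, given as a description over 6 libraries that share depth and GC trends.

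**Figure D4:**
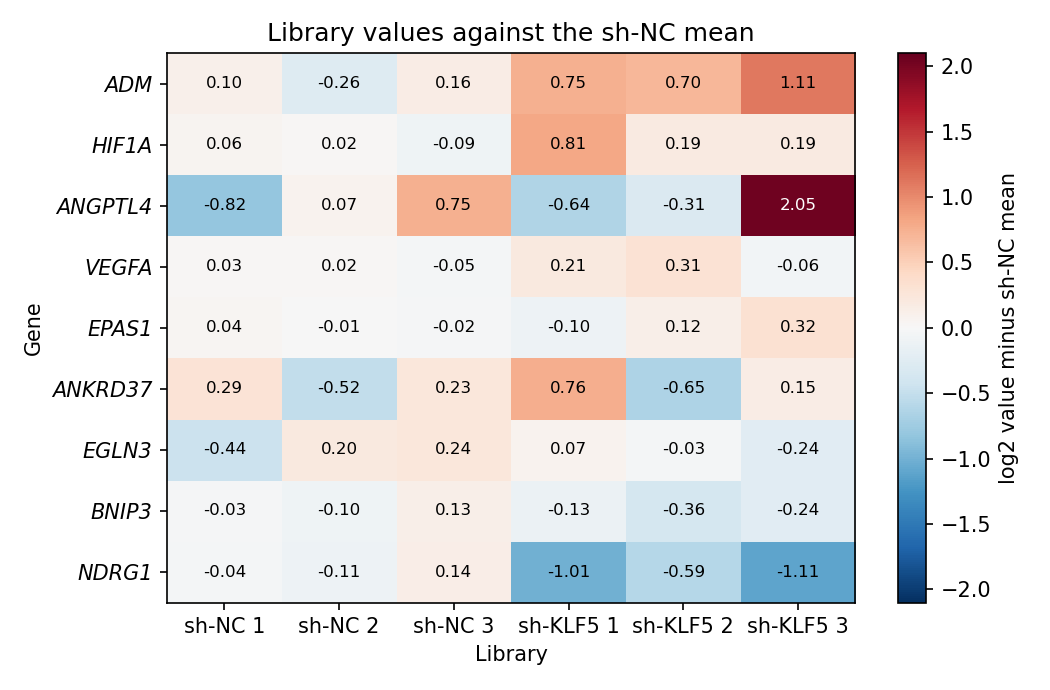
Log2 value of each tested member (rows) in each library (columns) minus the mean of the sh-NC libraries, written in each cell and coloured from blue (lower) to red (higher). ADM is positive and NDRG1 negative in all 3 sh-KLF5 libraries, HIF1A reaches 0.81 in sh-KLF5 library 1, and ANGPTL4 reaches 2.05 in sh-KLF5 library 3.

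The partners and regulators of the alpha subunits passed about as often as all genes. Of 14 listed genes, 13 were tested, 1 was called up and 0 down, and 2 passed upward and 0 downward without the fold threshold in limma (5.28% of all tested genes were called and 12.9% passed). Tests with edgeR and DESeq2 also called 0 of them down, and 4 of the 13 had an unadjusted p under 0.05, beside 26.2% of all tested genes. ARNT2, a partner that can pair with the alpha subunits in place of ARNT, rose from 180.5 ± 24.0 to 535 ± 145 normalized counts (SD, n = 3 each), a log2 difference of 1.54 (limma adjusted p = 2.06e-05). ELOB, the elongin B subunit of the VHL ligase, was chosen after its values were seen and rose by 0.46 on the log2 scale (limma adjusted p = 0.012). ARNT, the usual partner, had 1133 ± 38.1 normalized counts in controls and 1172 ± 38.7 after silencing (SD, n = 3 each). Among the oxygen sensors and the ligase, also named after their values were seen, the log2 differences were 0.15 for EGLN1, -0.59 for EGLN2 and 0.12 for VHL, none of which passed (limma adjusted p = 0.501, 0.0668 and 0.565). The median over the 13 genes was 0.12.

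A wider list of 58 HIF targets held 53 tested genes, of which 5 were called up and 3 down (3 up without sh-NC library 2), beside 1.9% and 3.37% of all tested genes. Without the fold threshold 14 passed upward and 5 downward, beside 6.04% and 6.85% of all tested genes, 34 did not pass, and the median log2 difference was 0.01. In glucose use (20 genes) both the transporters and the enzymes included genes that rose and genes that fell. PFKFB4, which sets the level of a glycolytic activator, rose from 224 ± 32.2 to 462 ± 116 normalized counts (SD, n = 3 each; log2 difference 1.02, limma adjusted p = 0.00122). PFKFB4 lay under the fold threshold without sh-NC library 2 (0.98) or 3 (0.94) and without sh-KLF5 library 1 (0.92) or 2 (0.89). PGK1, phosphoglycerate kinase, fell from 28292 ± 3612 to 11589.9 ± 699.6 normalized counts (SD, n = 3 each; log2 difference -1.28, limma adjusted p = 2.42e-06), and no sh-KLF5 library came near a control. ALDOC, a fructose-bisphosphate aldolase, fell from 59.4 to 18.6 normalized counts (log2 difference -1.63, limma adjusted p = 0.00132). Other genes share 10.1% of the exonic bases of ALDOC and 4.73% of those of PFKFB4, where the same-strand neighbour UCN2 had up to 294 reads. SLC2A3, the glucose transporter GLUT3, had 104, 88 and 55 reads in sh-NC and 2, 1 and 0 reads in sh-KLF5, which is 1.22% of control with an exact 95% interval of 0.251% to 3.62% that covers counting error only. SLC2A3 had enough reads to be tested only in sh-NC, so it could enter the test only as a fall. Named after its values were seen, the more widely used transporter SLC2A1 went the other way, from 1218 to 2014 normalized counts (log2 difference 0.73, limma adjusted p = 0.000571). In this group 4 genes passed upward and 4 downward, and the median log2 difference was -0.18.

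In the other target groups the passing genes were mainly among those that rose, where 6.04% of all tested genes passed upward and 6.85% downward. Of all tested genes, 1.9% were called up. The collagen group and the transcription and chromatin group had only 1 passing gene each, too few to give a direction. Of 7 collagen-modifying genes, 1 passed, the lysyl hydroxylase PLOD2 (log2 difference 0.64, limma adjusted p = 0.00583), which was also the most abundant of them at a mean level of 61.1 FPKM. PLOD1, next in abundance at 38.0 FPKM, had a log2 difference of -0.01 (limma adjusted p = 0.973). Of 6 genes in transcription and chromatin, the circadian repressor BHLHE41 was called up, from 22.3 to 68.8 normalized counts (log2 difference 1.58, limma adjusted p = 0.000998). SSPN on the opposite strand overlaps 4.10% of the exonic bases of BHLHE41 and had up to 71 reads. Of 15 tested genes in stress, lipid and iron handling, 6 passed upward and 1 downward, and the hormone STC2 was called up, from 532 to 1204 normalized counts (log2 difference 1.14, limma adjusted p = 0.000164). Among the secreted factors and receptors, IGFBP3, which binds insulin-like growth factors, rose 2.01-fold from 1969 to 3957 normalized counts (limma adjusted p = 1.26e-05). The log2 difference of STC2 was 0.92 without sh-KLF5 library 3, and that of IGFBP3 was 0.94 without sh-NC library 2 and 0.97 without sh-KLF5 library 1, all under the fold threshold.

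**Figure D5:**
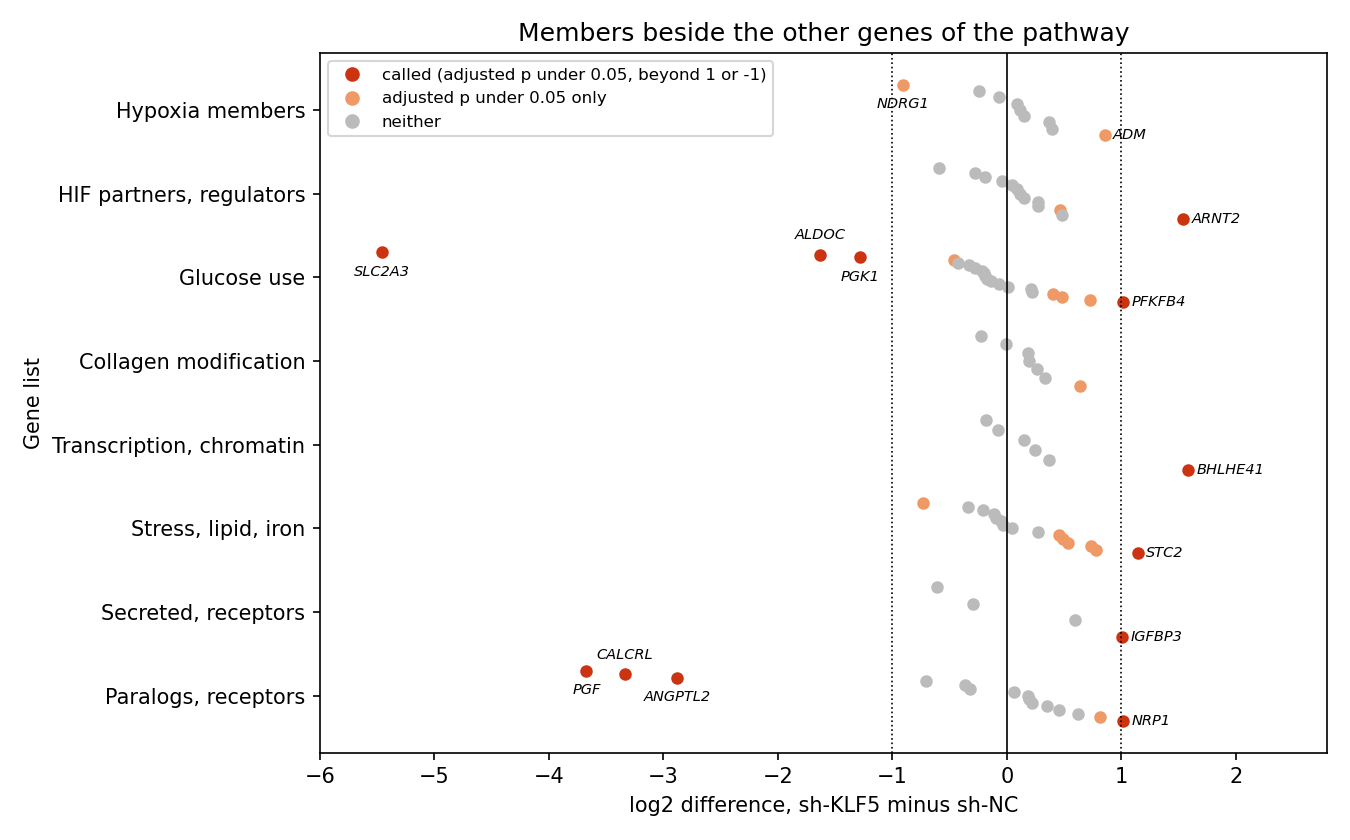
Log2 difference between sh-KLF5 and sh-NC (x axis) of the tested genes reported here in 8 gene lists (y axis), with dark red for called genes, orange for an adjusted p under 0.05 alone and grey for neither. The members lie between -0.90 and 0.85, while the called genes shown from the other lists reach from -5.46 for SLC2A3 to 1.58 for BHLHE41.

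Paralogs and receptors of the members gave 15 tested genes of 24 in the table, with 1 called up and 3 down (1.9% and 3.37% of all tested genes), and a median log2 difference of 0.19. The 3 genes called down had enough reads to be tested only in sh-NC, so they could enter the test only as falls. NRP1, a co-receptor for VEGFA, rose from 1561 ± 105 to 3161 ± 218 normalized counts (SD, n = 3 each; log2 difference 1.02, limma adjusted p = 1.24e-05). It lay just under the fold threshold without sh-NC library 1 (0.97) or sh-KLF5 library 3 (0.96). VEGFC, a lymphatic growth factor related to VEGFA and named after its values were seen, rose by 0.81 on the log2 scale (limma adjusted p = 0.000553). The placental growth factor gene PGF had 28, 15 and 22 reads in sh-NC and 0, 0 and 4 reads in sh-KLF5, or 6.20% of control (exact 95% interval 1.64% to 16.6%). CALCRL, which forms the adrenomedullin receptor with a RAMP protein, had 38, 28 and 27 reads in sh-NC and 2, 1 and 4 reads in sh-KLF5, or 7.58% of control (exact 95% interval 2.97% to 16.3%). As CALCRL could enter the test only as a fall, its direction was not set against the rise of ADM. RAMP1 and RAMP2, named after their values were seen, had log2 differences of 0.63 and 0.19. Neither passed (limma adjusted p = 0.167 and 0.823). ANGPTL2, a relative of ANGPTL4, had 30, 21 and 26 reads in sh-NC and 4, 2 and 2 reads in sh-KLF5, or 10.5% of control (exact 95% interval 4.36% to 21.7%). BNIP3L and NDRG3, also named after their values were seen, had log2 differences of 0.22 and 0.20 and did not pass (limma adjusted p = 0.321 and 0.347).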

How the data were processed

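RNA-seq libraries of SKOV3 sh-NC and sh-KLF5 cells (3 each) were compared. The authors deposited a normalized signal per gene and library, namely reads divided by 1 size factor per library. The same table holds their group means, log2 fold change and p-values, which were not used. The submitters' processing notes name HISAT2 2.0.5, featureCounts 1.5.0-p3, DESeq2 1.20.0 and hg38, without roles or a strand setting. Each library's values were divided by the value of 1 read to give reads, and 100% came out whole (tolerance 1e-06).

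The test was limma 3.58.1 (R 4.3.3), with a variance trend and robust moderation, applied to log2(normalized count + 1) over the 15803 genes passing filterByExpr of edgeR 4.0.16 (minimum count 10). Adjustment was by Benjamini-Hochberg over all tested genes. FPKM used the exonic lengths that the authors deposited with the expression values. Overlaps and transcript GC content used GENCODE release 29, whose coordinates matched 29180 of 29185 genes. Promoters came from RefSeq tables (GRCh38.p14). Alternatives were edgeR, DESeq2 1.42.0, other pseudocounts, filters, scalings and thresholds, a replicate block, each library left out, and, added after seeing the data, removal of GC trends. The scripts were tested on simulated data. Replicates differed beyond sampling noise (chi-square per degree of freedom 4.73 to 34.8), so no library was counted as a second deposit of another; this does not show separate cultures. Limits of 3 reads and exact intervals cover counting error only. Figures used matplotlib 3.10.9 in Python 3.11.15.

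The members and gene lists were chosen with earlier results of these data known. Named were all members, KLF5, called genes of the other lists, the 2 most abundant genes of a role group without calls, genes overlapping a member, and the 3 genes most like VEGFA. A gene covered by this rule is not reported here, though the counts include it.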

Additional observations from a re-analysis of the deposited data

How the results depend on the processing

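The members gave 0 calls in either direction under every test, pseudocount, filter and scaling tried. Leaving out each library in turn gave 0 to 1 members called down (1 without sh-KLF5 replicate 2) and 0 called up. Their median log2 difference ranged from 0.019 to 0.13, the lowest without sh-KLF5 replicate 3. Without the fold threshold there were 1 member up and 1 down, 2 partners up, 14 wider targets up and 5 down, 2 paralogs or receptors up, and 955 genes up and 1083 down in all. Dropping the filter on low counts left 811 genes down, and requiring 10 reads in every library left 231, of which 0 were paralogs or receptors, since those 3 genes had under 10 reads in sh-KLF5. Requiring 10 reads in every library also left 2 wider targets called down, as SLC2A3 was no longer tested. Leaving out each library gave 3 to 5 wider targets up (3 without sh-NC replicate 2), 3 down, 0 to 1 paralogs or receptors up (0 without sh-NC replicate 1 or sh-KLF5 replicate 3), 3 down, 1 partner up, and 253 to 337 genes up and 461 to 620 down in all. Signs turned with a library left out for EGLN3 (-0.29 to 0.051), ANKRD37 (-0.25 to 0.46) and ANGPTL4 (-0.47 to 0.87), none of which had passed. Below the fold threshold, with the adjusted p still under 0.05, fell PFKFB4 (0.89 to 1.24; without sh-NC replicate 2 or 3 or sh-KLF5 replicate 1 or 2), STC2 (0.92 to 1.30; without sh-KLF5 replicate 3), IGFBP3 (0.94 to 1.05; without sh-NC replicate 2 or sh-KLF5 replicate 1) and NRP1 (0.96 to 1.07; without sh-NC replicate 1 or sh-KLF5 replicate 3). With the GC trends removed, all genes gave 323 up and 543 down, and the members' median was 0.16. The causes of these shifts were not tested.

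HIF1A was the member whose adjusted p depended on the processing, from 0.00598 without a filter to 0.285 without sh-NC replicate 3. It also passed without sh-KLF5 replicate 3 (log2 difference 0.50, limma adjusted p = 0.0413) and with GC trends removed, and missed with edgeR (0.0789) and DESeq2 (0.053). Replicate numbers were not taken to pair libraries, since same-numbered ones correlated by 0.059, 0.033 and 0.050 in their deviations. A replicate block gave 327 genes up and 567 down, members 0 and 0, and HIF1A had an adjusted p of 0.0177 (limma). Depth limits CA9, EGLN3 and ANKRD37, which had at most 42 reads in a library.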

Other observations

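ANGPTL4 was highest in library 3 of sh-KLF5. By rank alone, that library was not set apart in the stress, mitochondria, lipid and iron group. Of the 15 tested genes of that group, 4 had their highest sh-KLF5 value in library 3 and 5 had their lowest there. Library 1 held the highest value of 6 genes and library 2 that of 5 genes. These counts leave out size. In sh-KLF5 libraries 1, 2 and 3, PLIN2 had 880, 835 and 1354 normalized counts and STC2 had 943, 1063 and 1607. HMOX1 had 1380, 2082 and 2840, while STC1 was lowest in library 3 (2871, 2709 and 1805). These genes were picked after their values were seen, and a link to ANGPTL4 was not tested. ALDOA, a glycolytic aldolase, had 73 to 147 reads in the 6 libraries, and 53.5% of its exonic bases overlap other genes, with AC093512.2 on the same strand covering 42.3%.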
